A study of Mus musculus with 6 samples.

Results

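Cells sorted by an EGFP reporter, by the design text from the renal medulla of mice, are described here after a sham operation. They were read in 3 of the 6 RNA sequencing samples of the series. The reporter is meant to mark intercalated cells, but the 3 most abundant transcripts were markers of the connecting tubule (Klk1 and S100g) and of principal cells (Aqp2), so the samples are not described as 1 cell type. The 3 samples were chosen by their label alone, sham, and by no measured value. The other 3 samples were not analysed here. Each sham sample pooled cells from 4 kidneys of 2 mice aged 12 weeks, and the kidneys were taken 2 h after the operation. All mice were B1 VATPase EGFP transgenics, in which green fluorescent protein marks cells that make subunit B1 of the vacuolar proton pump, and the EGFP-positive cells were passed through the sorter 2 times. The treatment entry reads sham and the treatment protocol reads no treatment. The labels contradict each other on origin: the design text gives the renal medulla, whereas the tissue entry reads epididymis. The genotype entry also places EGFP under CX3CR1. Whether all the cells came from the medulla was not tested. No unsorted sample was part of the groups used, so the purity of the sort can be read only from marker transcripts within these samples, and the EGFP transcript was not analysed here. The labels do not say whether the 3 pools came from separate days, and they name no batch.

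Intercalated cells are the mitochondria-rich cells of the connecting tubule and collecting duct that adjust the acid content of urine. Type A cells pump protons into the urine with an apical vacuolar ATPase and return bicarbonate to the blood through the exchanger AE1 (Slc4a1). Type B cells secrete bicarbonate through the apical exchanger pendrin (Slc26a4). Carbonic anhydrase 2 (Car2) supplies both with protons and bicarbonate, and the transcription factor Foxi1 is needed for both to form. Their neighbours, the principal cells, take up water through aquaporin 2 (Aqp2) and sodium through the epithelial sodium channel.

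The samples held 23061108, 22463419 and 17421669 reads counted in genes, and 18621 to 18878 genes had a read in each. Levels are the deposited RPKM, read counts divided by transcript length and by library size, so that genes can be compared per length. Where a gene has 3 values, they are those of sham replicates 1, 2 and 3 in that order. Of 37583 genes in the table, 10062 reached an RPKM of 1 in all 3 samples, which is 26.8% of the table, and these genes held 98.8% to 99.0% of the counts. An RPKM of 10 was reached by 4169 genes (11.1%) and an RPKM of 100 by 668 genes (1.78%). Counts of list members at these levels are to be read beside these shares of all genes. With 1 group of 3 samples no groups were compared, and SD below is the spread between these samples. A gene without a read can still have been present: 3 reads in a library, the limit that a count of 0 allows, corresponded at the gene's length to at most 0.423 RPKM among the 77 listed genes without a read (median 0.0587). Such limits cover counting error alone, because amplified copies of 1 molecule are counted as several reads.

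The most abundant transcripts came from several functions and from more than 1 cell type. The first place was held by tissue kallikrein (Klk1), a secreted protease of the connecting tubule, at 17705, 11991 and 17391 RPKM. It was followed by S100g, the calcium-binding protein calbindin-D9k, at 17774, 10616 and 16776 RPKM. Both were lowest in replicate 2, and together they took 2.21% ± 0.529 (SD, n = 3) of the counts. Aqp2 was the third transcript at 6974, 6679.6 and 6479.9 RPKM, and its 3 values lay close together. Fxyd2, the regulatory subunit of the sodium pump, reached 4434, 6375 and 6029 RPKM and Car2 reached 4719, 5703 and 5666 RPKM, both lowest in replicate 1. Osteopontin (Spp1), a secreted protein that binds calcium crystals, stood at 4171, 4749 and 4987 RPKM. The extracellular antioxidant enzyme Gpx3 stood at 3203, 5177 and 4253 RPKM, and the antimicrobial peptide beta-defensin 1 (Defb1) at 3511, 3133 and 3917 RPKM. The membrane protein Itm2b, at 6553 ± 269.7 RPKM (SD, n = 3), and the iron-storage chain Fth1, at 5437 ± 845 RPKM, are widely expressed genes.

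**Figure D1:**
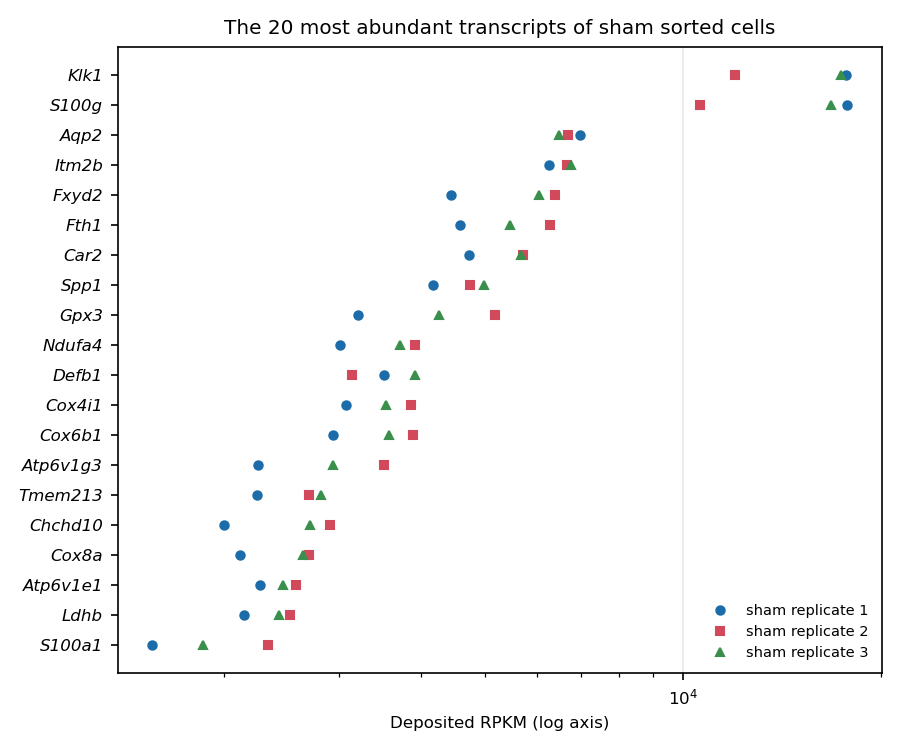
Deposited RPKM (log axis) of the 20 transcripts with the highest mean over the 3 sham samples, 1 marker per sample. Klk1 and S100g lead, and replicate 2 lies below the other samples for both, while 4 respiratory chain and 2 proton pump subunits lie in the rows from Ndufa4 down.

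The remainder of the first 20 was mostly mitochondrial or belonged to the proton pump. The respiratory chain subunits Ndufa4, Cox4i1, Cox6b1 and Cox8a averaged 3543, 3482, 3463 and 2484 RPKM. Chchd10, a protein of the mitochondrial intermembrane space, averaged 2537 ± 476 RPKM, and lactate dehydrogenase B (Ldhb), the form that favours the use of lactate, 2367 ± 195 RPKM. The pump subunits Atp6v1g3 and Atp6v1e1 averaged 2899.9 ± 624 and 2437 ± 151 RPKM, and Tmem213, a small membrane protein of intercalated cells, 2587 ± 297 RPKM. The calcium-binding protein S100a1 closed the list at 1919 ± 392 RPKM. The 100 most abundant genes took 24.5% ± 1.01 of the counts (n = 3). Of these 100 genes, 30 were among the listed subunits of the respiratory chain or ATP synthase. The proton pump accounted for 9, with its accessory proteins Atp6ap1 and Atp6ap2 among them. Clone or similar names were carried by 4, among them the microRNA mmu-mir-689-2, and 0 coded for cytosolic ribosomal proteins. The 0 is uncertain, since ribosomal protein genes have near-identical copies and reads without a unique alignment were not counted.

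The markers listed as shared by intercalated cell types were detected throughout. The list includes Oxgr1, described below as a receptor of type B cells. Whether each member is made by all intercalated cells, or by no other cells of the sort, was not tested. All 14 exceeded 10 RPKM in each sample, against 11.1% of all genes, and 11 exceeded 100 RPKM. Their median was 556 RPKM, against 0.0260 over all genes and 1.01 over genes with a read. Foxi1 stood at 525, 557 and 451 RPKM. The ammonia channels Rhcg and Rhbg, which carry the main acid-removing buffer of the urine, stood at 1031, 905 and 961 and at 572, 526 and 636 RPKM. Hepacam2, a membrane protein of these cells, stood at 544, 566 and 493 RPKM. The chloride channel subunit barttin (Bsnd) was lower, at 97.7, 141 and 137 RPKM, and the adaptor Clnk lowest of the list, at 18.4, 17.3 and 17.7 RPKM.

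Both subtypes of intercalated cell were represented. All 7 type A markers exceeded 1 RPKM, against 26.8% of all genes, with a median of 93.7 RPKM, and all 5 type B markers exceeded 10 RPKM, with a median of 243 RPKM. Slc4a1, the type A exchanger, stood at 103, 75.8 and 102 RPKM. Its type A companions were the vasopressin receptor Avpr1a at 119, 153 and 211, the intracellular water channel Aqp6 at 187, 143 and 117, the transcription factor Dmrt2 at 114, 94.6 and 96.4 and the receptor Kit at 48.5, 33.0 and 34.2 RPKM. Replicate 1 was the highest sample for 6 of the 7 type A genes, with Avpr1a as the exception, and for 38.6% of detected genes. Of type B genes, Slc26a4 stood at 537, 898 and 784 RPKM, the bicarbonate transporter AE4 (Slc4a9) at 350.1, 525 and 390.0 and the transcription factor Hmx2 at 145, 359 and 224 RPKM. Insrr, a receptor kinase that responds to alkaline fluid, stood at 29.4, 55.4 and 42.3 and Parm1, a mucin-like membrane protein, at 33.9, 42.3 and 39.0 RPKM. All 5 were highest in replicate 2 and lowest in replicate 1, which held for 37.2% and 38.1% of detected genes.

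The balance of the 2 subtypes differed from sample to sample. Slc26a4 exceeded Slc4a1 by 5.20, 11.8 and 7.67 times in replicates 1, 2 and 3, a mean of 8.24 ± 3.36. The size of the difference depended on the pair of genes. Kit, of type A, stood at 1.65, 0.595 and 0.809 times Insrr, of type B. For the transcription factors, Dmrt2 of type A stood at 0.783, 0.264 and 0.431 times Hmx2 of type B. The median type B marker exceeded the median type A marker 1.41, 4.73 and 2.32 times, a mean of 2.82 ± 1.72, and without replicate 2 the mean was 1.87. In raw counts, which favour long transcripts, the last ratio was 1.42 ± 0.640. In such bulk samples, fewer cells of a type cannot be told apart from less RNA per cell, so a ratio of transcripts is no ratio of cells.

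Principal cell transcripts were present at high levels in cells sorted for an intercalated cell reporter. Of 13 principal cell markers, 11 exceeded 1 RPKM in all samples, against 26.8% of all genes, and the median of the list was 30.6 RPKM. Aqp2 exceeded Car2 by 1.26 ± 0.186 times per length, and their ratio in raw counts was 1.00 ± 0.147. The basolateral water channels Aqp3 and Aqp4 stood at 626, 592 and 611 and at 33.6, 28.4 and 29.8 RPKM. Fxyd4, the sodium pump regulator of the collecting duct, stood at 922, 746 and 941 RPKM. The enzyme Hsd11b2, which protects the mineralocorticoid receptor from glucocorticoids, stood at 537, 293 and 504, and the sodium channel subunits Scnn1b and Scnn1g at 108, 73.9 and 103 and at 101, 50.02 and 91.4 RPKM. Each of these last 3 genes was lowest in replicate 2. Measured as medians, the principal cell list stood at 0.0526 ± 0.00675 of the shared intercalated cell list, or 0.133 ± 0.0211 in raw counts. The median of the principal cell list was 80.9 RPKM over its members with at least 10 reads in all samples.

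The V2 vasopressin receptor Avpr2, the receptor through which vasopressin acts on principal cells, was almost without reads at 0.104, 0.0562 and 0.0719 RPKM. Counting ignored strand, and 81.3% of its exon bases lie in exons of Arhgap4 on the opposite strand in the GENCODE M21 annotation. Without strand, a read in such an overlap cannot be given to either gene, so this level is uncertain. Arhgap4 itself, a gene chosen after its value was seen, stood at 1.01 ± 0.135 RPKM.

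Other tubule segments were seen to different degrees. The distal convoluted and connecting tubule list had 7 of 8 members above 1 RPKM in all samples, with a median of 20.3 RPKM. Below Klk1 and S100g came calbindin-D28k (Calb1) at 536, 229 and 496 RPKM and the thiazide-sensitive cotransporter Slc12a3 at 25.3, 18.0 and 39.0 RPKM. Parvalbumin (Pvalb), a marker of the early distal convoluted tubule, was at 4.83, 4.70 and 30.3 RPKM, with its highest value in replicate 3. The thick ascending limb list had 7 of 8 members above 1 RPKM, with a median of 20.3 RPKM. Uromodulin (Umod), the most abundant protein of normal urine, led that list at 357, 225 and 387 RPKM, and the loop diuretic target Slc12a1 was at 37.3, 22.5 and 37.1 RPKM. Per length, Umod came to 0.0611 ± 0.0192 of Car2.

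The proximal tubule and thin limbs were close to absent. Of 20 proximal tubule markers, 3 exceeded 1 RPKM in all samples (Ttc36, Kap and Slc27a2), 15 were below 1 RPKM in every sample, and the median was 0.0762 RPKM. Ttc36 stood at 32.2, 32.4 and 28.6 RPKM, whereas the phosphate transporter Slc34a1 was at 0.687, 0.0837 and 0.196, the endocytic receptor Lrp2 at 0.218, 0.147 and 0.204 and the urate transporter Slc22a12 at 0 reads. In the thin limb list, 1 of 6 genes found exceeded 1 RPKM, and the water channel Aqp1 was at 0.152, 0.147 and 0.0418 RPKM.

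**Figure D2:**
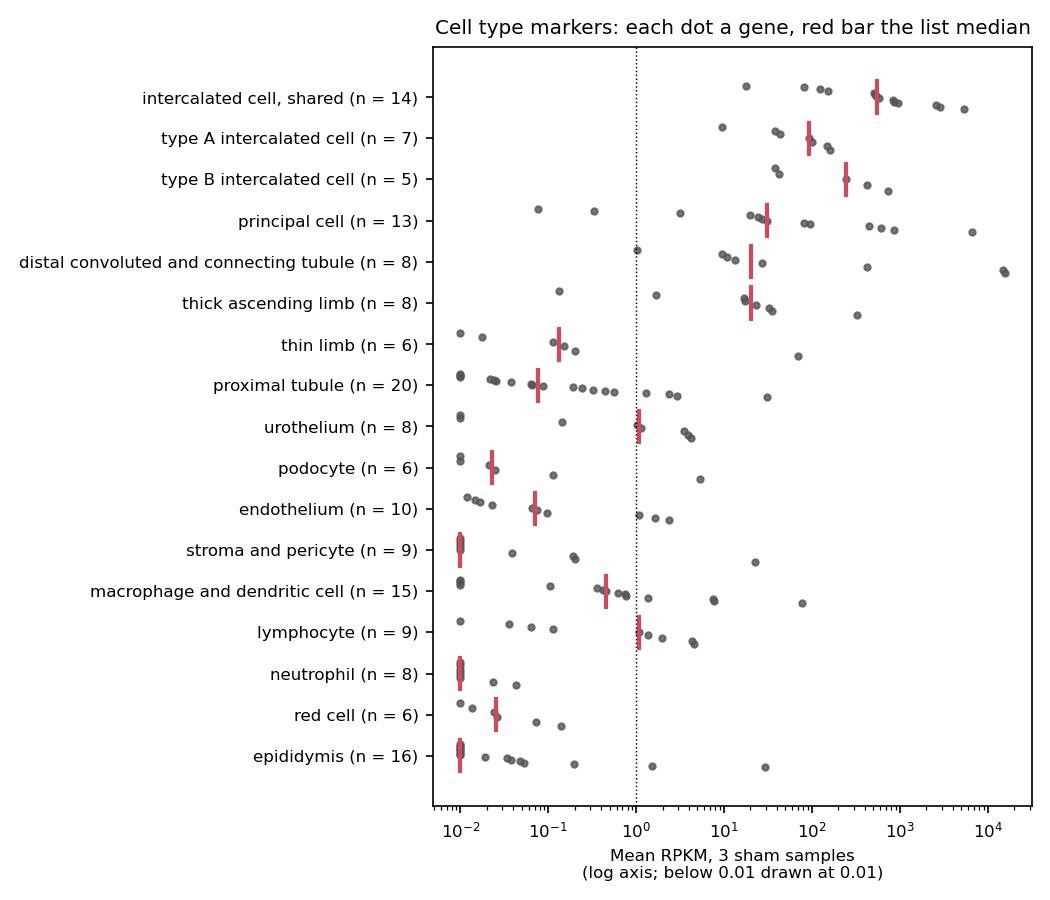
Mean RPKM of the 3 sham samples (log axis) for each marker gene of 17 cell type lists, with the list median as a red bar and a dotted line at 1 RPKM. Shared intercalated cell markers lie farthest to the right (median 556 RPKM), and the proximal tubule, podocyte, endothelium, neutrophil and red cell medians are among those below 1 RPKM.

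Cells outside the tubule left few reads. None of 8 neutrophil and none of 6 red cell markers exceeded 1 RPKM in all samples, and the neutrophil genes S100a8 and S100a9 had 0 reads. The podocyte list had 1 of 6 above 1 RPKM, Cdkn1c at 5.55, 6.09 and 4.29 RPKM, and nephrin (Nphs1) had 0 reads. The endothelial list had 2 of 10 above 1 RPKM, Ehd3 and Egfl7, while Pecam1 stood at 0, 0.0572 and 0.167 RPKM. The stromal list had 1 of 9, decorin (Dcn), at 9.66, 43.8 and 15.0 RPKM with its peak in replicate 2, whereas the collagen Col3a1 and the receptor Pdgfrb had 0 reads. The urothelium list had 2 of 8, with the uroplakins Upk3a and Upk1a at 4.30, 2.26 and 6.03 and at 2.94, 3.16 and 4.55 RPKM, and the keratin Krt5 had 0 reads.

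Immune transcripts varied widely between samples. The lymphocyte list had 1 of 9 members above 1 RPKM in all samples, Cd79b at 1.14, 4.14 and 8.42 RPKM, and Cd79a, the other chain of the B cell receptor complex, stood at 0.0274, 2.71 and 10.3 RPKM. All 9 lymphocyte markers were highest in replicate 3, which was the highest sample for 24.2% of detected genes. Of the 9, Cd79b alone counts as detected, so that share is of genes with more reads. Several of these orders rest on few reads: Cd4 had 0, 1 and 1, Cd3e 0, 1 and 2, Cd3d 0, 2 and 3 and Nkg7 0, 2 and 6. Cd4 thus had 1 read in both replicates 2 and 3, and replicate 3 is the smaller library. The summed level of the list was 1.53, 9.36 and 29.8 RPKM, and its median was 1.07 RPKM, or 0.417 without replicate 3. The macrophage and dendritic cell list had 3 of 15 above 1 RPKM. The antigen-presentation gene Cd74 stood at 25.1, 54.2 and 155 RPKM and H2-Aa at 1.55, 5.65 and 15.7 RPKM, while the macrophage genes C1qa and Csf1r were at 0.614, 0 and 0.740 and at 0.153, 0.0658 and 0.0947 RPKM. Cx3cr1, the gene named in the genotype entry, had 1, 0 and 0 reads.

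The entry that reads epididymis was compared with 16 epididymal genes. Of these, 8 had no read in any sample, among them Lcn5, Crisp1 and Cst11, and 14 were below 1 RPKM in every sample. The other 2 were the defensin Defb2, at 23.1, 23.5 and 40.3 RPKM, and Cst8, at 2.48, 1.09 and 0.986 RPKM. Clear cells of the epididymis are known to carry the same proton pump, so the pump does not separate the 2 tissues, whereas Umod and Slc12a1, given above, are transcripts of the kidney.

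The vacuolar proton pump is an assembly of a cytoplasmic V1 sector, which splits ATP, and a membrane V0 sector, which carries the protons. Of 13 V1 genes, 12 exceeded 1 RPKM and 10 exceeded 100 RPKM in all samples, and all 12 V0 and accessory genes exceeded 1 RPKM. The V1 list held 1.82% ± 0.192 of the counts (SD, n = 3) and the V0 list 1.16% ± 0.0694. For the B, C, G, a and d subunits, the isoform known from intercalated cells exceeded the widely expressed one in every sample. Atp6v1b1, the B1 subunit on which the reporter is based, stood at 784, 912 and 874 RPKM, against 51.6, 63.8 and 58.0 RPKM for Atp6v1b2, a ratio of 14.9 ± 0.485. For the G subunit, Atp6v1g3 exceeded Atp6v1g1 (162, 185 and 191 RPKM) 16.1 ± 2.59 times, and the brain form Atp6v1g2 was at 2.30, 2.16 and 2.14 RPKM. For the C subunit, Atp6v1c2 exceeded Atp6v1c1 4.78 ± 0.975 times. In the membrane sector, Atp6v0d2 at 776, 945 and 799 RPKM exceeded Atp6v0d1 13.1 ± 2.62 times. The a4 isoform, Atp6v0a4, at 84.0, 82.9 and 79.0 RPKM, exceeded Atp6v0a1 12.7 ± 0.761 times, and the osteoclast form Tcirg1 was at 1.89, 1.81 and 1.90 RPKM. Of the 2 genes for the E subunit, Atp6v1e1 stood at 2276, 2575 and 2461 RPKM and the testis form Atp6v1e2 had 0 reads.

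**Figure D3:**
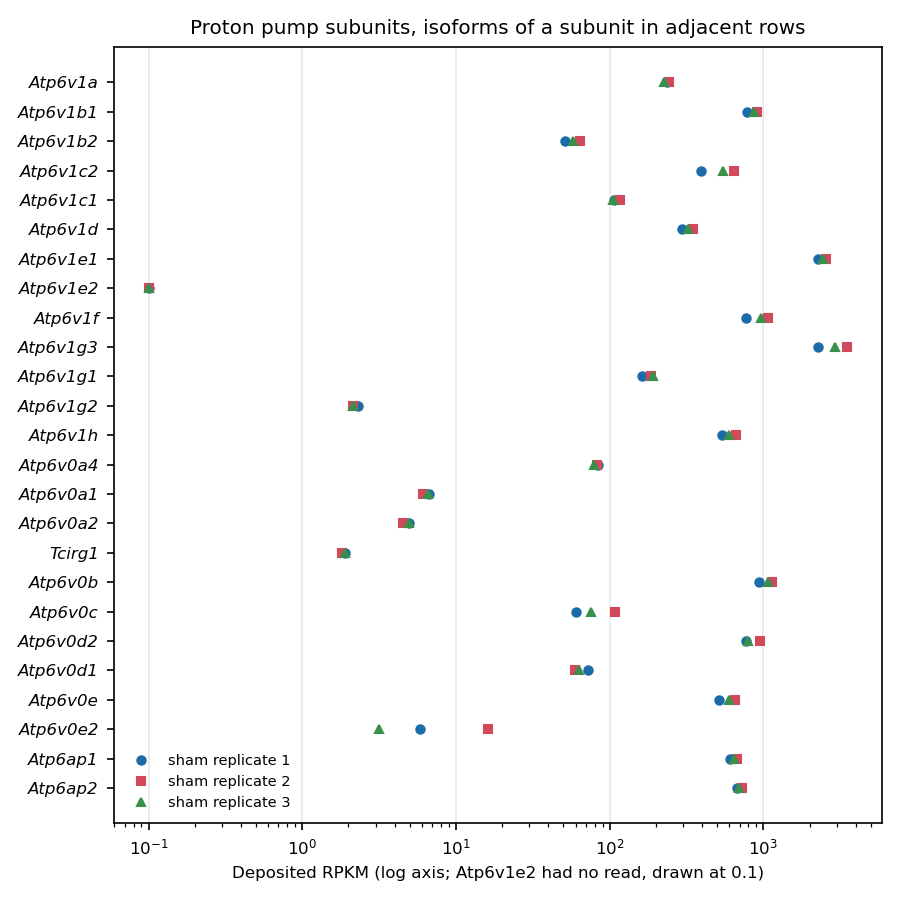
Deposited RPKM (log axis) of 25 proton pump genes in the 3 sham samples, isoforms of a subunit in adjacent rows. Atp6v1b1, Atp6v1c2, Atp6v1g3, Atp6v0a4 and Atp6v0d2 lie to the right of their alternative isoforms in every sample.

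The levels of subunits were far from equal per length. Atp6v1a, the ATP-splitting A subunit, for which there is 1 gene, stood at 237, 242 and 225 RPKM, below the B1 subunit with which it alternates in the same ring. The a4 subunit, the largest of V0, was also low beside Atp6v0b at 933, 1134 and 1070.2 RPKM. The accessory proteins Atp6ap1 and Atp6ap2, the second also known as the prorenin receptor, stood at 605, 669.9 and 640.0 and at 679, 727 and 693 RPKM. Of the 13 V1 genes, 9 were lowest in replicate 1 and 10 were highest in replicate 2, against 38.1% and 37.2% of detected genes. Among detected genes of 1000 to 2000 bases, the length of Atp6v1b1 and Atp6v1g3 among others, 54.0% were lowest in replicate 1. The part of transcript length in this order was not tested.

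The sequence before the start of Atp6v1b1 is shown because this gene is the basis of the reporter that defined the sort. It comes from RefSeq on build GRCm38.p6, and 250 bases before the annotated start are printed 5′ to 3′ on the gene's strand. Capitals mark a match to TGTTTAC, the core letters bound by forkhead factors, the family of Foxi1.

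Atp6v1b1, chr6:83742767-83743016, plus strand: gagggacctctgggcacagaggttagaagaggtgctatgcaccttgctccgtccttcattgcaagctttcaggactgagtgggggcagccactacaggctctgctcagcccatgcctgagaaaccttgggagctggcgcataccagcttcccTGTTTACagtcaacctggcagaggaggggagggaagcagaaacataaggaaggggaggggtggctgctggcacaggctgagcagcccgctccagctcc

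The match lay 98 bases before the start. Over all genes with a promoter in the table, 3.54% held this motif on either strand in the same window, and 1 of the 18 intercalated cell markers with an entry did, Atp6v1b1 itself. The promoter fragment of the transgene is not given in the sources used here and need not hold these bases.

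Among acid and base transporters, 16 of 24 exceeded 1 RPKM in all samples, against 26.8% of all genes. Beside the ammonia channels, pendrin, AE4 and AE1, the gastric proton-potassium pump Atp4a was at 22.7, 30.1 and 34.3 RPKM, while its colonic relative Atp12a was at 0.658, 0.0873 and 0.391 RPKM. Slc26a7, a second basolateral exchanger of type A cells, stood at 11.0, 8.73 and 9.14 RPKM. The sodium-proton exchanger Slc9a2 was at 12.6, 11.6 and 11.8 RPKM, and Slc9a3, the proton exchanger of the proximal tubule, at 0.145, 0.208 and 0.332 RPKM. The sodium-bicarbonate cotransporter Slc4a4 was at 0.367, 0.340 and 0.167 and Slc4a8, which takes part in sodium uptake beside pendrin, at 1.24, 1.03 and 1.26 RPKM.

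Carbonic anhydrase expression was concentrated in 2 of 16 genes. Car2, in the cytoplasm, exceeded the membrane-bound Car12 15.8 ± 0.842 times, and Car12 stood at 299.8, 379 and 339 RPKM. The next, Car4 and the mitochondrial Car5b, were at 4.59, 3.12 and 7.76 and at 5.24, 4.96 and 5.04 RPKM. Car1 and Car5a had 0 reads, and the hypoxia-induced Car9 was at 0.120, 0.0971 and 0.0621 RPKM.

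Of 49 genes for sodium, potassium and chloride transport, 29 exceeded 1 RPKM, against 26.8% of all genes. The beta subunit of the sodium pump, Atp1b1, stood at 1246, 1066 and 1144 RPKM. The chloride channel Cftr had 0 reads in all samples, which allows at most 0.0210 RPKM. The potassium channel of principal cells and the thick limb, Kcnj1 (ROMK), was at 241, 136 and 204 RPKM and lowest in replicate 2. The flow-activated potassium channel Kcnma1, which is studied in intercalated cells, was at 0.0370, 0.0239 and 0.0408 RPKM. Its beta subunits Kcnmb1 to Kcnmb4 were all below 0.1 RPKM. The potassium channel Kcnq1 stood at 76.9, 58.2 and 66.8 and the leak channel Kcnk1 at 90.9, 67.7 and 90.4 RPKM.

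Tight junction genes followed the collecting duct. Of 18 claudins, 10 exceeded 1 RPKM, against 26.8% of all genes. Cldn8 led at 655, 502 and 597 RPKM, followed by Cldn7 at 241, 257 and 237 RPKM. Cldn4 stood at 44.3, 38.8 and 38.2 and Cldn3 at 22.6, 20.5 and 17.7 RPKM. The thick limb claudins Cldn10 and Cldn16 were at 18.9, 14.9 and 18.4 and at 16.9, 12.7 and 21.6 RPKM, and Cldn2, of the proximal tubule and thin limb, at 0.132, 0.0387 and 0.0660 RPKM. Of 11 aquaporins, 5 exceeded 1 RPKM (Aqp2, Aqp3, Aqp6, Aqp4 and Aqp11), and Aqp7 and Aqp9 had 0 reads.

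Of 42 genes for the transport of organic solutes and metabolites, 17 exceeded 1 RPKM in all samples, against 26.8% of all genes, and 0 exceeded 100 RPKM. The monocarboxylate carrier Slc16a7 (MCT2) was at 69.8, 60.6 and 69.4 RPKM, whereas Slc16a1 (MCT1) was at 0.531, 0.291 and 0.360 RPKM. Glucose transport was represented by Slc2a1 (GLUT1) at 48.4, 59.5 and 62.6 and by the insulin-responsive Slc2a4 (GLUT4) at 40.2, 49.7 and 53.1 RPKM, with Slc2a2 (GLUT2) at 0.116, 0.0622 and 0.0597 RPKM. The amino acid carrier subunit Slc3a2 was at 74.5, 65.6 and 66.8 RPKM, and the urate and organic anion carriers Slc22a6 and Slc22a8 were below 0.1 RPKM. Organic osmolytes protect medullary cells against high salt. Of 8 genes for their handling, including breakdown, 8 exceeded 1 RPKM but 2 exceeded 10. Sorbitol dehydrogenase (Sord), a breakdown enzyme, stood at 45.9, 10.9 and 32.4 RPKM. The betaine carrier Slc6a12 was at 5.53, 13.1 and 7.04 RPKM, and aldose reductase (Akr1b3) at 8.51, 8.54 and 7.03 RPKM. Sord was lowest and Slc6a12 highest in replicate 2.

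Genes of energy supply held more counts than any other functional list read here. Nuclear genes for the respiratory chain and ATP synthase, 89 in number, held 7.15% ± 0.646 of the counts, or 11.9% of the summed RPKM. Of these, 82 exceeded 1 RPKM and 68 exceeded 100 RPKM in all samples, against 1.78% of all genes, with a median of 424 RPKM. Ndufa4 led at 3012, 3912 and 3705 RPKM, and the beta subunit of ATP synthase, Atp5b, stood at 1606, 1731 and 1753 RPKM. The mitochondrially encoded subunits were not analysed here. All 23 genes of the tricarboxylic acid cycle and pyruvate dehydrogenase exceeded 10 RPKM, with a median of 154 RPKM, led by malate dehydrogenase 1 (Mdh1) at 1639, 1820.0 and 1914 RPKM. Citrate synthase (Cs) stood at 134, 137 and 144 RPKM, with its 3 values within a narrow range.

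Fuel-handling genes differed by route. In fatty acid oxidation, 20 of 22 genes exceeded 1 RPKM, with a median of 31.7 RPKM. Acaa2, which performs the last step of the spiral, was at 262, 234 and 240.1 and the entry enzyme Cpt1a at 35.7, 24.7 and 25.8 RPKM, with the muscle form Cpt1b at 0.475, 0.498 and 0.376 RPKM. Ketone use was represented by Oxct1, which activates acetoacetate, at 233, 280.0 and 296 and Acat1 at 171, 181 and 198 RPKM. In glycolysis, 18 of 24 genes exceeded 1 RPKM, led by Ldhb at 2148, 2523 and 2429 RPKM, 7.66 ± 0.919 times Ldha, and aldolase A (Aldoa) at 1442, 1520.1 and 1453 RPKM. Hexokinase was Hk1, at 26.2, 27.1 and 30.5 RPKM, while Hk2 was at 0.0119, 0.122 and 0.0574 RPKM and Hk3 had 0 reads. The muscle form of phosphoglycerate mutase, Pgam2, stood at 872, 837 and 1044 RPKM, and Pgam1, whose level is uncertain, was listed at 7.51, 8.25 and 8.82 RPKM. Gapdh, otherwise one of the most abundant transcripts of a cell, was at 3.89, 9.32 and 5.43 RPKM. It has near-identical copies, and 39.9% to 41.7% of recorded reads had no unique alignment and were not counted. Its level and those of Pgam1, Eno1, Pgk1 and most ribosomal protein genes are therefore uncertain. Whether reads of Ldha were lost in the same way was not tested, so the ratio of Ldhb to Ldha is uncertain too.

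In gluconeogenesis, 2 of 6 genes exceeded 1 RPKM, against 26.8% of all genes, and 0 exceeded 10 RPKM in all samples. The 2 were Pck2 and Pcx, at 8.70, 10.3 and 10.1 and at 6.66, 7.31 and 8.11 RPKM. The rate-setting Pck1, Fbp1 and G6pc were at 0.1002, 0.0405 and 0.0518, at 0.683, 0.164 and 0.497 and at 0.198, 0.0711 and 0.137 RPKM. A phosphocreatine store was represented by the mitochondrial creatine kinase Ckmt1 at 475, 608 and 585 and the cytoplasmic Ckb at 94.9 ± 5.92 RPKM (SD, n = 3). The creatine carrier Slc6a8 stood at 2.42, 2.21 and 2.51 RPKM, and the synthesis enzyme Gatm at 1.12, 0.0302 and 0.135 RPKM.

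Protection from oxidants was broad, with 22 of 24 glutathione and antioxidant genes above 1 RPKM, 12 above 100 RPKM and a median of 98.3 RPKM. Below Gpx3 came Gpx1 at 797, 820.0 and 852 RPKM, the mitochondrial peroxiredoxins Prdx5 and Prdx3 at 758, 823 and 849.5 and at 283, 318 and 313 RPKM, and mitochondrial superoxide dismutase (Sod2) at 171, 205 and 206 RPKM. The coactivator Ppargc1a, a regulator of mitochondrial genes, was at 39.9, 38.6 and 30.5 RPKM, and the deacetylase Sirt3 at 52.2, 52.1 and 61.8 RPKM. The estrogen-related receptors Esrra and Esrrg, nuclear receptors that act with Ppargc1a, were at 25.2, 29.8 and 24.7 and at 15.6, 12.6 and 12.6 RPKM.

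Promoters of the respiratory chain genes were searched on both strands. Of the 89 genes, 78 were lowest in replicate 1, against 38.1% of detected genes and 54.0% of those of 1000 to 2000 bases. This shared order prompted the search, and its cause was not tested. Ribosomal protein genes shared it, with 61 of 84 lowest in replicate 1. The motif shares below do not bear on this order, because it was not compared between genes with and without a motif. The search, made in the other lists too, covered the forkhead core named above, the core site of estrogen-related receptors AAGGTCA with its longer form TCAAGGTCA, and the palindromic site of nuclear respiratory factor 1. It also covered the ETS and GABP core CCGGAAG, the ZNF143 core ACTACAA, and an element with the letters TCTCGCGA. The last were the E-box CACGTG and 2 longer forms that contain it, TCACGTGA and the USF form CACGTGAC. Of 68 respiratory chain genes with an entry, 5 (7.35%) held AAGGTCA, against 4.70% of all 27025 genes with an entry and 3.52% of the detected ones. CCGGAAG was held by 12 (17.6%), against 7.83% of all genes and 17.3% of the detected ones. ACTACAA was held by 8 (11.8%), against 3.27% and 4.65%. The nuclear respiratory factor 1 site was held by 4 (5.88%), against 0.877% and 2.07%. In the order given so far, the shares were 6.35%, 31.7%, 6.35% and 0% of the 63 ribosomal protein genes with an entry. Those of the 19 proton pump genes with an entry were 0%, 10.5%, 5.26% and 5.26%. These matches are counts of letters and do not show binding. The motifs given so far were chosen for description after the counts were seen. Of the rest, respiratory chain genes held CACGTG in 8.82%, against 6.86% of all and 10.2% of detected genes. In the same order, the forkhead core came to 2.94%, 3.54% and 2.65%, and CACGTGAC to 1.47%, 2.11% and 4.18%. TCACGTGA came to 1.47%, 0.907% and 1.89%, TCTCGCGA to 2.94%, 0.977% and 2.33%, and TCAAGGTCA to 1.47%, 0.422% and 0.321%. Atp5g3, a ring subunit of ATP synthase at 944, 1325 and 1220.2 RPKM, is shown as one that holds AAGGTCA, here read as TGACCTT on the gene's strand and in capitals, 52 bases before the start.

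Atp5g3, chr2:73911327-73911576, minus strand (RefSeq, GRCm38.p6): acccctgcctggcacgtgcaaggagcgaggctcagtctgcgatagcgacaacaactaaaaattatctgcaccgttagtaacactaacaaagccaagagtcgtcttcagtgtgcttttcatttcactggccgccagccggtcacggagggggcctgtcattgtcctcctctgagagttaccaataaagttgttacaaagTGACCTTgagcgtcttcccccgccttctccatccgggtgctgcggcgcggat

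Receptors were read from 7 lists with 261 entries, of which 37 (14.2%) exceeded 10 RPKM in all samples, against 11.1% of all genes. Among 27 receptors for nucleotides and metabolites, 6 exceeded 1 RPKM, against 26.8% of all genes. Oxgr1, the receptor for 2-oxoglutarate through which type B cells sense acid-base state, was the highest at 173, 157 and 133 RPKM. P2ry14, the receptor for UDP-glucose named in the title of the study, was second at 77.4, 49.0 and 56.5 RPKM, with replicate 1 the highest sample. It stood far above P2ry2, a receptor for ATP and UTP, at 2.85, 3.47 and 3.38 RPKM, and P2ry1, a receptor for ADP, at 0.809, 0.199 and 0.508 RPKM. P2ry12 and P2ry6 were below 0.1 RPKM, and P2ry4 and P2ry13 had 0 reads. Of 7 ATP-gated P2X channels, P2rx4 alone exceeded 1 RPKM, at 24.0, 22.7 and 24.2 RPKM. The adenosine receptor Adora1 stood at 4.50, 3.43 and 4.29 and the calcium-sensing receptor Casr at 2.85, 3.63 and 4.31 RPKM.

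Of 50 hormone and peptide receptors, 7 exceeded 1 RPKM, against 26.8% of all genes, and 20 had no read. Avpr1a led, as given above. The glucagon receptor Gcgr was at 75.8, 69.9 and 73.3 RPKM and the parathyroid hormone receptor Pth1r at 44.0, 24.2 and 50.3 RPKM with its lowest value in replicate 2. The secretin receptor Sctr stood at 2.75, 8.08 and 7.07 RPKM, lowest in replicate 1. The angiotensin receptors were near absent: Agtr1a had 0 to 0.0323 RPKM, Agtr2 0 to 0.162 RPKM and Agtr1b 0 reads.

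Among 30 prostanoid, lipid and adhesion receptors found, 11 exceeded 1 RPKM, against 26.8% of all genes. The adhesion receptors Gpr56 (Adgrg1) and Gpr116 (Adgrf5, which limits proton secretion by type A cells) stood at 231, 177 and 209.6 and at 52.4, 38.3 and 38.2 RPKM. The prostaglandin receptors Ptger3 and Ptgfr were at 20.2, 26.6 and 22.8 and at 15.6, 24.2 and 16.0 RPKM. Of 47 receptor tyrosine kinases, 14 exceeded 1 RPKM, near the share of 26.8% over all genes. Insrr and Kit led this list. The collagen receptor Ddr1 stood at 22.7, 20.6 and 23.2 and the hepatocyte growth factor receptor Met at 20.9, 18.3 and 17.8 RPKM. The insulin receptor Insr was at 3.42, 3.43 and 3.37 and Egfr at 0.963, 0.897 and 0.997 RPKM.

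Steroid and lipid signals reach nuclear receptors, of which 24 of 48 exceeded 1 RPKM, against 26.8% of all genes. The vitamin D receptor Vdr was at 26.1, 26.4 and 36.3 RPKM, the mineralocorticoid receptor Nr3c2 at 13.3, 11.8 and 11.4 RPKM and the glucocorticoid receptor Nr3c1 at 3.35, 2.37 and 2.49 RPKM. Nr0b2 (SHP), a repressor without a DNA-binding domain, was at 25.2, 29.9 and 25.9 RPKM. Of 52 cytokine and innate immune receptors, 31 exceeded 1 RPKM, against 26.8% of all genes. The TWEAK receptor Tnfrsf12a was the highest at 61.9, 71.2 and 54.1 RPKM, followed by Ltbr at 33.7, 36.2 and 32.6 and the tumour necrosis factor receptor Tnfrsf1a at 23.4, 22.6 and 22.0 RPKM. Toll-like receptors were low: Tlr3, which senses double-stranded RNA, stood at 2.77, 2.44 and 3.20 RPKM, Tlr4 at 0.129, 0.146 and 0.0748 and Tlr2 at 0.172, 0.0996 and 0.146 RPKM.

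**Figure D4:**
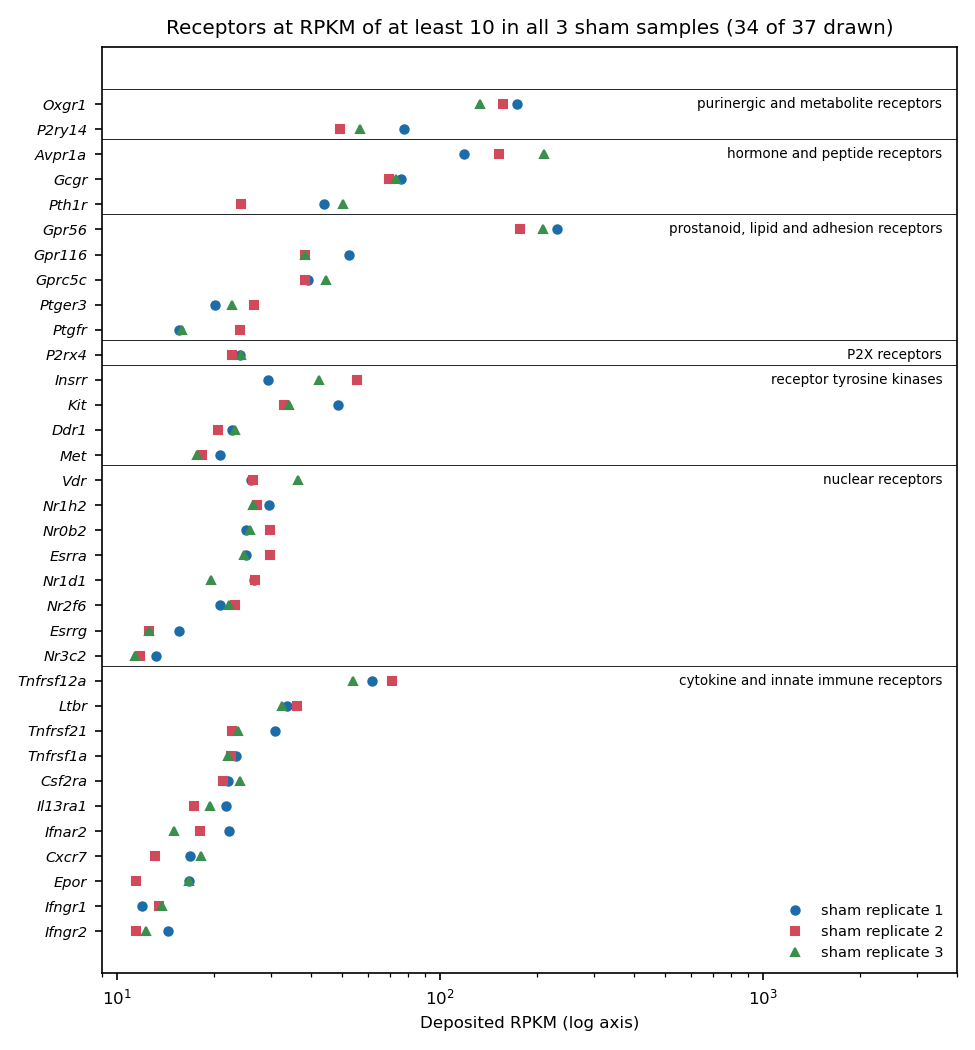
Deposited RPKM (log axis) of 34 of the 37 receptor genes at 10 RPKM or more in all 3 sham samples, by list. Oxgr1 and P2ry14 head the metabolite receptors, and Avpr1a, Gpr56, Insrr, Vdr and Tnfrsf12a the other lists with more than 1 such gene, by their means.

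Of 42 collecting duct transcription factors, 33 exceeded 1 RPKM, and Foxi1 and Id2 had the highest means. Id2, an inhibitor of helix-loop-helix factors, stood at 474, 445 and 610.4 RPKM. The homeobox gene Hoxd8 was at 257, 182 and 234 RPKM, and Tfcp2l1, needed for the mix of cell types in the collecting duct, at 80.6, 70.8 and 66.4 RPKM. Gata2 and Gata3 stood at 34.4, 35.6 and 35.5 and at 28.9, 25.7 and 26.3 RPKM. Hmx3, the neighbour and relative of Hmx2, was at 0.602, 4.36 and 1.85 RPKM with the same highest sample, replicate 2. Id1 varied most among the members with a mean of at least 5 RPKM, at 10.4, 21.6 and 35.3 RPKM.

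Immediate-early genes, which respond within minutes to handling as well as to signals, were read in the sham samples too. Of 22, 15 exceeded 1 RPKM and 11 exceeded 10 RPKM. Fos stood at 119, 145 and 221 RPKM, Ier2 at 133, 171 and 190.5 RPKM, Junb at 111, 118 and 149.5 RPKM and Atf3 at 6.88, 11.4 and 18.9 RPKM. Of the 22 genes, 16 were highest in replicate 3, against 24.2% of detected genes. Sorting time and temperature are not in the labels, and their part in these levels was not tested. All 16 heat shock genes exceeded 1 RPKM, and Hspa5, the chaperone of the endoplasmic reticulum, stood at 472, 301 and 364 RPKM. The proliferation genes Mki67 and Top2a, chosen after their values were seen, were below 0.1 RPKM in every sample, and so was the kidney injury marker Havcr1.

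Secreted proteins beyond those named included cystatin C (Cst3) at 792, 1452 and 977 RPKM, Wfdc2 at 732, 827 and 836 RPKM and clusterin (Clu) at 538, 343 and 487 RPKM. The antibacterial ribonuclease Rnase4 stood at 10.7, 43.0 and 23.2 RPKM, highest in replicate 2. Lipocalin 2 (Lcn2), an iron-binding protein used as a marker of kidney injury, stood at 22.4, 19.2 and 18.7 RPKM. The proteinase inhibitor Spink8 and the hormone precursor Guca2a (guanylin), chosen after their values were seen, were at 1153, 2147 and 1773 and at 629, 855 and 1022 RPKM.

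The 3 pools had similar levels for most genes. Among 6335 genes with a mean of at least 5 RPKM, the median SD of log2(RPKM + 0.1) was 0.12, and 40 genes had an SD above 1. The common biological coefficient of variation was 15.6%, over 12858 genes. Between any pair of samples, 64 to 110 of these 6335 genes were at least 2-fold apart. As a check for a library deposited under 2 labels, the counts of each pair were compared, and chi-square came to 16.9 to 39.3 per degree of freedom. No pair was thus alike within counting noise, which says nothing more about how the pools were made.

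The genes with the largest spread fell into a few groups. Immunoglobulin and antigen-presentation genes were low in replicate 1 and high in replicate 3: the light chain gene Igkc stood at 0.124, 41.9 and 149.8 RPKM, the heavy chain gene Ighm at 0, 5.06 and 18.0 RPKM and H2-Ab1 at 0.862, 5.40 and 16.1 RPKM. Another set was low in replicate 2 alone, with the protease Habp2 at 18.7, 0.184 and 19.9 RPKM and the heme-binding protein Hebp1 at 53.3, 7.42 and 46.9 RPKM. Of the 20 most variable genes, 8 had clone or predicted-gene names. Hspa8, the constitutive heat shock protein 70, also varied, at 90.0, 14.3 and 29.7 RPKM, and has near-identical copies.

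Tubule markers shared a pattern over samples. In replicate 2, all 8 distal convoluted and connecting tubule markers, 10 of 13 principal cell markers and 6 of 8 thick ascending limb markers had their lowest value, against 31.3% of detected genes. In the same sample all 5 type B markers had their highest value. Of the 7 type A markers, 4 were lowest and 0 highest there, and of the 14 shared intercalated cell markers 3 were lowest and 8 highest. Some of these orders are near ties: replicates 1 and 2 stood at 0.923 and 0.914 RPKM for Trpm6 and at 4.83 and 4.70 for Pvalb. Avpr2 had 8, 4 and 4 reads. The sums of the lists show the size: the distal and connecting tubule list added up to 36069, 22874 and 34756 RPKM, and the thick ascending limb list to 489, 322 and 539 RPKM. Without their top genes, Klk1 and Umod, the sums were 18364, 10883 and 17365 RPKM and 132, 97.7 and 152 RPKM. The principal cell list, which Aqp2 dominates, differed less, at 9381, 8527 and 8841 RPKM, or 2407, 1848 and 2361 RPKM without Aqp2. The share of other tubule cells in each sort and its part in these differences were not tested.

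**Figure D5:**
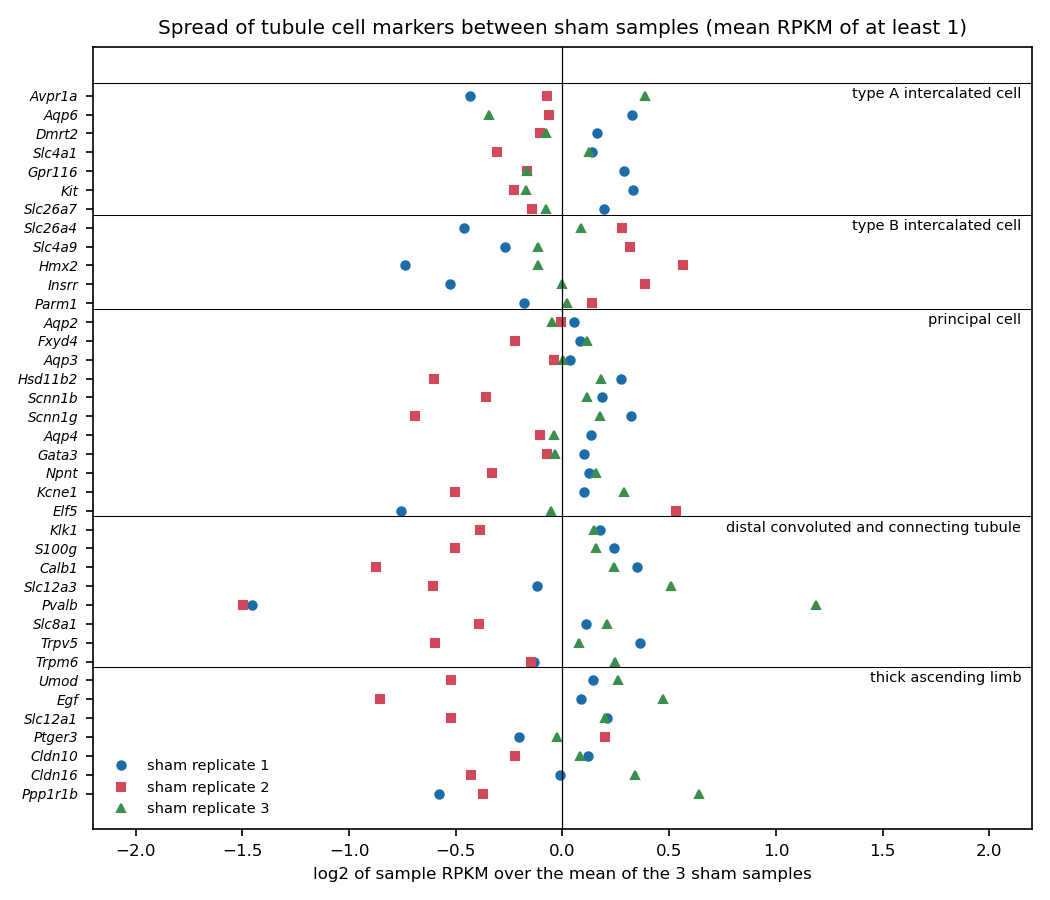
Level of each tubule marker in each sham sample as log2 of its RPKM over the mean of the 3 samples, for markers with a mean of at least 1 RPKM. Squares (replicate 2) lie to the right for all 5 type B markers and to the left for all 8 distal convoluted and connecting tubule markers.

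Sample order also differed with transcript length. Beside the 78 of 89 respiratory chain genes, 61 of 84 ribosomal protein genes were lowest in replicate 1, against 38.1% of detected genes. The median length was 1245 bases in the first list and 1398 in the second, against 3386 over detected genes. Among the 773 detected genes shorter than 1000 bases, 57.1% were lowest in replicate 1, among the 1660 genes of 1000 to 2000 bases, the band of both list medians, 54.0% were, and among the 4037 genes of at least 4000 bases 27.1% were. The part of transcript length in the lower respiratory chain values of replicate 1 was not tested.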

How the data were processed

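RNA of sorted EGFP-positive cells was read in 3 sham samples, grouped by their titles and source names. The labels' protocols give a low-input RNA kit, SMARTer library preparation, which does not mark strand, and Illumina sequencing. The deposited counts are integers, 1 for each gene, without normalization, and strand was ignored, per the file names. STAR, HTSeq, edgeR and build mm9 are listed in the submitters' processing notes; their versions and the annotation used are not named there. The deposited RPKM values cover 37583 genes with symbols and lengths, per the file headers. RPKM equalled the count divided by the deposited length and by a library size that was 1.04 to 1.09 times the gene total (genes with at least 50 reads). The 3 columns of other samples in that table were not used. The 5 entries that name no gene stayed out: of recorded reads, 49.1% to 50.6% fell in genes, 39.9% to 41.7% had no unique alignment, 7.29% to 7.81% no feature and 1.68% to 1.73% were ambiguous.

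Levels, list medians, shares and ratios were computed with pandas 2.3.3, each over the 3 samples as mean ± SD. No group was compared, so no p-value is given. A gene was taken as detected at an RPKM of at least 1 in all samples, and log2 values used a pseudocount of 0.1. The biological coefficient of variation came from edgeR 4.0.16 (R 4.3.3) on the counts, in genes with enough reads, without a treatment term. It was tested on counts simulated with the real means and library sizes, where a known value of 20% came back as 19.7%. It came back as 25.4% when 200 genes, drawn from the 9881 with higher mean counts, were raised in 1 library. Alternatives were another threshold, gene total or DESeq2 1.42.0 size factors as scaling, raw counts, a filter of 10 reads, and leaving out each replicate. Exon overlaps came from GENCODE M21 (988 of 989 genes matched by identifier). Promoters came from RefSeq on GRCm38.p6, another build than mm9, matched by symbol, so no position was taken to the data.

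The 17 marker lists, the 30 functional lists with a member in the table and the motifs were chosen with earlier results of these data known. Named genes were the 20 highest, up to 8 high and 3 low members of a functional list, up to 5 high members of a marker list and those without a read, the 10 most variable genes and isoform pairs. Several genes chosen by this rule go without description. Some members of the lists are not reported here, in the text or in the figure of receptors, but stay in the counts of their lists. Lcn2, Egfr, Nr3c1, Insr, Tlr2, Tlr3, Tlr4, Lrp2, Slc34a1, Pecam1, C1qa, Csf1r, Hebp1, Hspa8, Atf3, Hmx3, Id1, Gata2, Gata3, Rnase4, Slc4a4, Slc4a8, Slc9a3, Slc16a1, Slc2a2, Hk1, Pgam1, Gapdh, Atp5g3, Cs and other members outside the rule were chosen after their values were seen.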

Additional observations from a re-analysis of the deposited data

How the results depend on the processing

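No paired analysis was possible because no groups were compared and the results come from no test. The number of detected genes stayed between 8404 (RPKM of at least 2) and 12786 (at least 10 reads in all samples), with 10206 to 10271 when a replicate was left out. The share of the 100 most abundant genes was 27.2% when genes were ranked by counts, and 24.3% to 24.9% when a replicate was left out. Removing mitochondrially encoded genes was not run, since none were in the table. The share of the respiratory chain was 11.9% of summed RPKM, and 6.91% to 7.52% of counts when a replicate was left out. Marker lists with a median of at least 1 RPKM were 15 instead of 8 when members under 10 reads were removed, since that filter removes the low members, and 6 to 8 when a replicate was left out. Functional lists with such a median stayed at 20 under either scaling and without any replicate, and were 30 under that filter. In raw counts the principal to intercalated ratio of medians was 0.133 and Aqp2 over Car2 was 1.00, because length no longer divides. Without a replicate these were 0.0488 to 0.0553 and 1.16 to 1.32. The type B to type A ratio was 1.87 to 3.53 and Slc26a4 over Slc4a1 6.43 to 9.76 without a replicate. The coefficient of variation was 18.0% without a filter on low counts, over 21219 genes, and 13.2% to 18.5% without a replicate. The median SD of log2 was 0.12 with a pseudocount of 1 and 0.078 to 0.13 without a replicate. Scaling by the gene total alone raised the median log2 level of genes with a mean of at least 5 RPKM by 0.12 in replicate 1, 0.06 in replicate 2 and 0.07 in replicate 3. Under it and under DESeq2 size factors, added after seeing the data, the counts of markers that were lowest or highest in replicate 2 did not move, and the respiratory chain genes lowest in replicate 1 were 74 and 78. Depth limits what can be said of genes with a few reads, and the limits for a count of 0 are given with the levels.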
